A study of Rattus norvegicus with 12 samples.

Results

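The genes described here carry out glycolysis, the uptake of glucose and the export of lactate, the use of pyruvate, and the response to low oxygen, with a few enzymes of glycogen and of fructose bisphosphate turnover. They are a list of 41 genes chosen by symbol, with earlier results of these data known, and all 41 were found among the 32623 genes that the deposited tables hold. Of these, 38 passed the filter on low counts that left 13539 genes for testing. The other 3 are Pdk4, Car12 and Fbp1. Their counts were 0 to 6, 0 to 7 and 0 to 1 per library, and they are given by level only.

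Polyadenylated RNA was sequenced from primary cells of rats with cirrhosis after chronic inhalation of carbon tetrachloride, and the labels call the cells hepatic stellate cells (pericytes that store vitamin A and make collagen when activated). For 24 h the cells shared medium, through a Transwell membrane that keeps cells apart, with human amniotic epithelial cells (hAEC), with human mesenchymal stromal cells of the amnion (hAMSC), at 15000 viable cells of either kind, or with neither (vehicle, whose composition the labels leave unstated). Each of the 3 groups had 4 libraries: hAEC 3, 4, 11 and 12, hAMSC 7, 8, 15 and 16, and vehicle 17, 18, 19 and 20, and values are given in that order throughout, so that the first 2 of each 4 belong to the lower-numbered and the last 2 to the higher-numbered of the sets described next. All groups share the rat model, so no cells from healthy liver were compared, and strain, age, sex and the number of rats are not in the labels. Because the labels do not say whether libraries came from separate rats or cultures, the p-values rest on the spread among the libraries alone, and that spread may be technical. Levels are normalised read counts (CPM, scaled to library size), which are compared between libraries and not between genes.

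The libraries held 27382724 to 34922211 counts. They parted into 2 sets of 6, each with 2 libraries of every group, along a first principal component that took 73.5% of the variance, computed over 2000 variable genes with the members left out. Libraries 3, 4, 7, 8, 17 and 18 form the lower-numbered set and libraries 11, 12, 15, 16, 19 and 20 the higher-numbered set. The labels do not name these sets, and what separates them was not tested. Comparisons between groups were therefore made in a model that holds the set as a term, in which the biological coefficient of variation, the spread between libraries beyond counting error, was 9.92% against 38.9% without it. The cell type label was checked against markers. Of 12 stellate and myofibroblast markers the median level was 1.6 CPM, with Lrat at 0.174, Acta2 at 1.88 and Col1a1 at 2.20 CPM, whereas the median of 17 macrophage markers was 899 CPM. The highest of the 12 was Reln at a mean of 39.5 CPM. It ran from 54.8 to 92.2 CPM in the lower-numbered and from 6.71 to 15.4 CPM in the higher-numbered set. All these levels are not scaled for gene length. On these markers the data go against the label and the cells are not called by the label's name below. Summed over their lists, macrophage markers held 29530 to 32440 CPM in the lower-numbered and 55030 to 57820 CPM in the higher-numbered set, and endothelial markers 671 to 823 and 402 to 570 CPM. Much of the macrophage sum was Gpnmb, at a mean of 15130 and 25400 CPM, and single markers went both ways: 7 of the 17 were over 1 log2 unit higher in the higher-numbered set, such as Lyz2 (3.03), and 3 were lower, namely Cd14 (-2.41), Marco (-1.39) and Msr1 (-1.035). Of the 12 endothelial markers 7 were over 1 log2 unit lower in the higher-numbered set, such as Lyve1 (-4.34), and none was that much higher. Much of their sum in the lower-numbered set was Cdh5, at a mean of 174 CPM against 49.98 CPM in the higher-numbered set. Tie1, at a mean of 165 and 187 CPM, and Eng, at 135 and 151 CPM, also held much of it and were slightly higher in the higher-numbered set. The part of these cell types in the values below was not tested. In bulk RNA, fewer cells of a type and less RNA per cell cannot be told apart.

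In glycolysis, glucose enters through facilitative transporters, is trapped by hexokinase, committed by phosphofructokinase and split, and its fragments are oxidised to pyruvate with a net yield of ATP. Pyruvate is then reduced to lactate by lactate dehydrogenase and exported, or taken into mitochondria, where pyruvate dehydrogenase turns it into acetyl-CoA and pyruvate carboxylase into oxaloacetate. Under low oxygen the prolyl hydroxylases of the Egln family no longer mark Hif1a for destruction, and hypoxia-inducible factors raise many glycolytic genes and the kinases that switch pyruvate dehydrogenase off. In macrophages, inflammatory stimuli are known to shift glucose use towards lactate, and several of these genes serve as markers of that shift.

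Among the 38 members tested, Pc, which encodes pyruvate carboxylase, was the only one that passed a test of co-culture. It fell by 0.27 on the log2 scale with hAMSC against vehicle (SE 0.039, a change of -17.1%; edgeR quasi-likelihood test, adjusted p = 0.00648). This is 1 of 38 members, or 2.63%, against 0.236% of all genes tested. With hAEC edgeR called no member and none of the 13539 genes (0%), where 4 members had an unadjusted p under 0.05, and DESeq2 called 2 genes, neither a member. Between hAEC and hAMSC edgeR called no member, against 3 genes in all (0.0222%), and DESeq2 called 80 genes and no member. The median size of the members' log2 differences was 0.06 with hAEC and 0.08 with hAMSC against vehicle, and 0.58 between the library sets. Over all genes tested the same medians were 0.06, 0.07 and 0.38. CPM of 31 of the 38 members, or 81.6%, did not overlap between the sets, against 54.9% of all genes tested. By direction, 28% of all genes were higher in the lower-numbered set without overlap and 26.9% in the higher-numbered set. A difference between the sets carries no test, since the sets were found in these libraries.

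**Figure D1:**
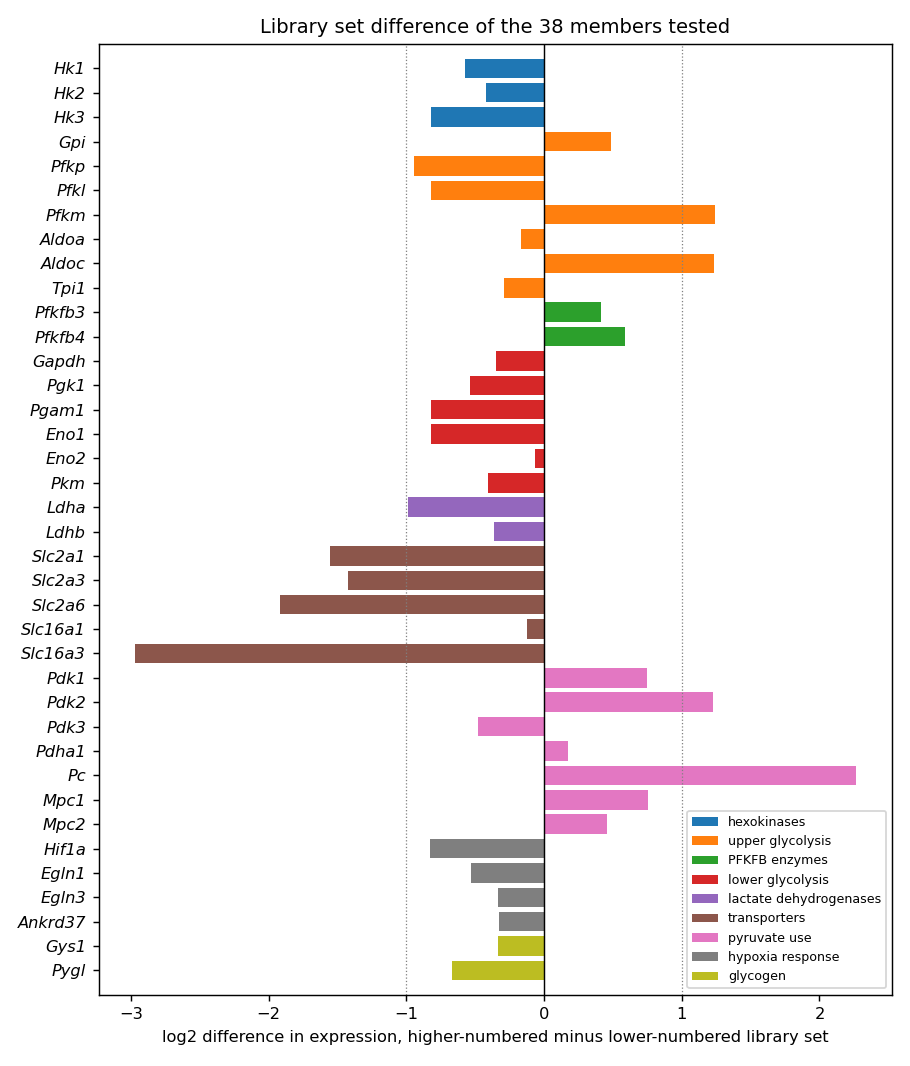
Difference between the library sets for each of the 38 members tested, as log2 of the higher-numbered over the lower-numbered set from the fit with the group as a term; members are grouped by role. Slc16a3 lies at -2.97 and Pc at 2.27, with most glycolytic enzymes to the left of 0.

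The 5 transporters had a median set difference (higher-numbered minus lower-numbered) of -1.56 on the log2 scale, the largest in size of the 9 roles that the list was sorted into. None of them passed in a comparison of groups. Slc16a3, the proton-linked monocarboxylate carrier known for lactate export from glycolytic cells, was 7.86-fold higher in the lower-numbered set. Slc16a3 stood at 80.5, 86.9, 9.69 and 11.4 CPM in hAEC, at 84.1, 82.96, 12.4 and 9.64 CPM in hAMSC and at 82.7, 86.8, 11.4 and 9.46 CPM in vehicle. All 6 libraries of the lower-numbered set lie above all 6 of the other, whatever the co-culture, and within each set the groups overlap. The fitted change of Slc16a3 with hAMSC was 0.02 (SE 0.073) and with hAEC -0.00 (SE 0.073), on the log2 scale.

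Slc2a6 stood at 123, 127, 27.9 and 34.4 CPM in hAEC, at 134, 126, 38.02 and 31.02 CPM in hAMSC and at 109.9, 123, 29.7 and 36.1 CPM in vehicle. This hexose carrier sits on lysosomal membranes and is known to be induced in inflammatory macrophages. It was 3.78-fold higher in the lower-numbered set, again with no overlap. Slc2a1 stood at 281, 285, 89.2 and 100.1 CPM in hAEC, at 285, 274, 99.5 and 87.9 CPM in hAMSC and at 280.4, 289, 97.8 and 101 CPM in vehicle. Slc2a1, the widespread facilitative glucose transporter, was 2.94-fold higher in the lower-numbered set, and its change with hAMSC was -0.06 (SE 0.045). Slc2a3 was found at 0.978, 0.631, 0.391 and 0.477 CPM in hAEC, at 1.12, 1.23, 0.202 and 0.330 CPM in hAMSC and at 1.48, 0.873, 0.459 and 0.475 CPM in vehicle. Slc2a3, a high-affinity glucose transporter, rested on 6 to 41 counts per library, and its set difference was -1.42.

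Slc16a1 stood at 96.8, 100.5, 91.4 and 88.4 CPM in hAEC, at 104, 109, 87.2 and 98.3 CPM in hAMSC and at 91.5, 90.4, 91.9 and 86.1 CPM in vehicle. Slc16a1, a monocarboxylate carrier that moves lactate and pyruvate either way, is the only one of the 5 transporters whose sets overlap, at a set difference of -0.12. With hAMSC its log2 difference from vehicle was 0.14 (SE 0.047), which did not pass (edgeR quasi-likelihood test, adjusted p = 0.304), but passed without hAMSC 15 (0.19, adjusted p = 0.0420). Over all alternatives the adjusted p of Slc16a1 ran from 0.0420 to 1. Both hAMSC libraries of the lower-numbered set lie above both vehicle libraries, whereas in the higher-numbered set hAMSC 15 lies between vehicle 19 and vehicle 20.

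**Figure D2:**
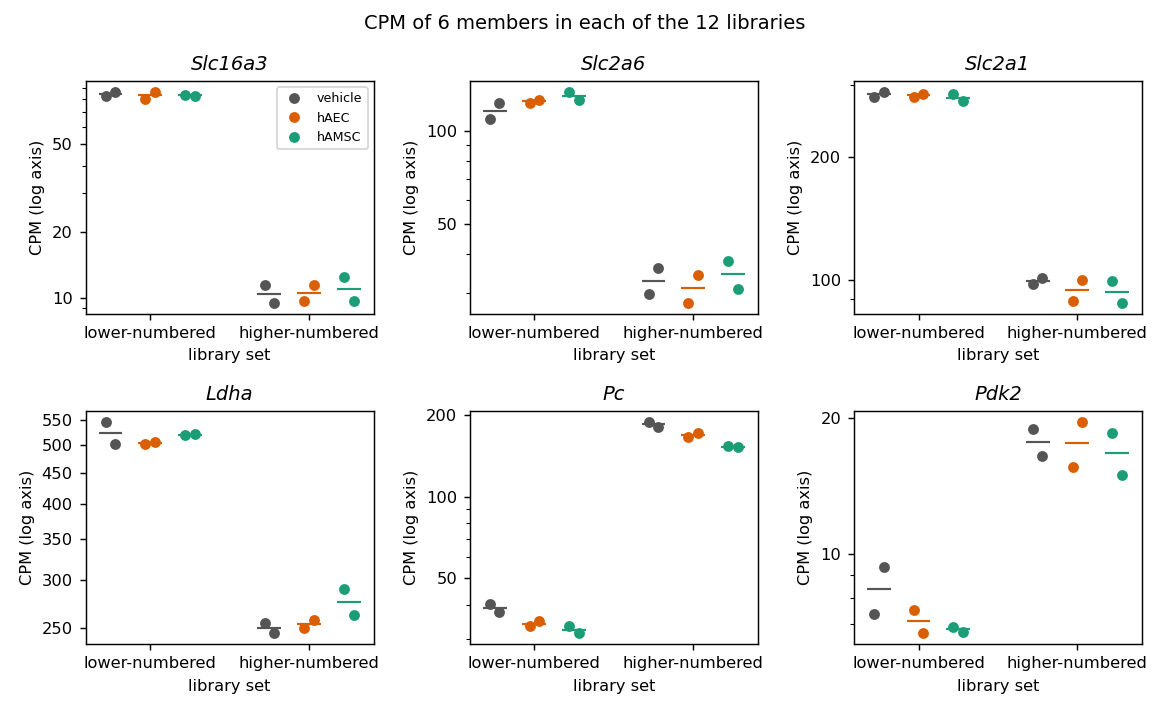
CPM on a log axis of Slc16a3, Slc2a6, Slc2a1, Ldha, Pc and Pdk2, with a point for each of the 12 libraries, by group and set. Slc16a3 takes 80.5 to 86.9 CPM in the lower-numbered set and 9.46 to 12.4 CPM in the other, in every group alike.

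Promoter sequences are printed for 6 members, chosen to show the carriers that differ most between the sets beside Ldha, Pdk1 and Pdk2, which carry matches to the core of the hypoxia response element. The windows run from 250 bases before to 50 after the start site, from RefSeq on the build GRCr8, which is not the build of the counts. Capitals mark ACGTG or GCGTG on either strand, overlaps included, so that the palindrome CACGTG counts as a match on each strand.
Slc16a3 promoter, chr10:106712078-106712377, + strand: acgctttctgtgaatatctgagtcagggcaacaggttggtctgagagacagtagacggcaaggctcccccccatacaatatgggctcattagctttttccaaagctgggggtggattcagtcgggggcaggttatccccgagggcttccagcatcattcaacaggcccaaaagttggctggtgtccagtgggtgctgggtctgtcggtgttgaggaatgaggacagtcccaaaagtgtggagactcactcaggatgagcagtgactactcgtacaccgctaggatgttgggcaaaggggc
Slc2a6 promoter, chr3:30753238-30753537, - strand: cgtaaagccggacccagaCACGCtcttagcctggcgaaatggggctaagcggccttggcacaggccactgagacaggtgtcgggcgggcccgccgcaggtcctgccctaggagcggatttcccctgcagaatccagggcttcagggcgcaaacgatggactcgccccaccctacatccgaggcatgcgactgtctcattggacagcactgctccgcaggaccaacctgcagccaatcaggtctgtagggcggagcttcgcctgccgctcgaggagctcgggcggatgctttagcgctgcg
Slc2a1 promoter, chr5:138002272-138002571, + strand: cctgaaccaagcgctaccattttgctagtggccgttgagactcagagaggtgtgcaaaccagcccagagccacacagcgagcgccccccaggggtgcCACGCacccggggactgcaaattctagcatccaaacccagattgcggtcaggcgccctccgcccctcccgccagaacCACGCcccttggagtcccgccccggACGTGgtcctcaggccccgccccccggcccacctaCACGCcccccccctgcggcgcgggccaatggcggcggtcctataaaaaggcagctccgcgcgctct
Ldha promoter, chr1:106507842-106508141, + strand: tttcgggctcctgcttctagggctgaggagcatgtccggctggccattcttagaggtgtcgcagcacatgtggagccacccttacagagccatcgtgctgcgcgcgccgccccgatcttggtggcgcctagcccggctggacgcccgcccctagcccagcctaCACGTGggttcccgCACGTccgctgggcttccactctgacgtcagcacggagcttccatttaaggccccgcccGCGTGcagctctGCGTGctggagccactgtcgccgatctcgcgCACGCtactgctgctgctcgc
Pdk1 promoter, chr3:77113264-77113563, + strand: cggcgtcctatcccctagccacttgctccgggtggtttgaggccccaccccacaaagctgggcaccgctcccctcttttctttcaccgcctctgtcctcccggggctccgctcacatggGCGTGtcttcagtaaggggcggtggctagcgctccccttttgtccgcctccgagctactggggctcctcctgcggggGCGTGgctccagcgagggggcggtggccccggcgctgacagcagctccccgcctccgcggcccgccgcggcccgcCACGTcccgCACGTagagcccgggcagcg
Pdk2 promoter, chr10:80483863-80484162, - strand: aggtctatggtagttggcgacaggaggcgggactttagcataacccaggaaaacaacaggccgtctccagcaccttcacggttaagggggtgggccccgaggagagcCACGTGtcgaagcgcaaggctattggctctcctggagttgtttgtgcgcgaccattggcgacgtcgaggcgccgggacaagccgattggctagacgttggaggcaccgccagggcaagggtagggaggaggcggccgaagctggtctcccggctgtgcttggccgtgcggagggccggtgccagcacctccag

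By these letters Slc16a3 has 0 matches, Slc2a6 has 1, Slc2a1 has 4, Ldha has 6, Pdk1 has 4 and Pdk2 has 2. A promoter was found for 38 of the 41 members, and none was found for Pc, Pgk1 or Slc2a3. Either motif was present in 28 of the 38, or 73.7%, against 61.5% of the 9422 promoters of genes tested and 41.6% of all 33469 promoters of the same length. Members that were higher in the lower-numbered set held one in 14 of 20 promoters, and members higher in the other set in 6 of 8. Members whose sets overlap held one in 6 of 7. A match is a description of these letters and not a site of binding, and a window without one, such as that of Slc16a3, says only that the letters are not in it.

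All 3 hexokinases, which phosphorylate glucose on entry, were higher in the lower-numbered set without overlap, against 28% of all genes. Hk2 stood at 198, 202, 154 and 155 CPM in hAEC, at 206, 204, 147 and 141 CPM in hAMSC and at 182, 187, 140.2 and 142 CPM in vehicle. Hk2, the inducible isoform that binds mitochondria, had no overlap between hAEC and vehicle within either set, and its difference of 0.12 on the log2 scale with hAEC (SE 0.036) did not pass (edgeR quasi-likelihood test, adjusted p = 0.860). With hAMSC it was 0.09 (SE 0.036; adjusted p = 0.426). Hk3 stood at 606, 612, 319 and 338 CPM in hAEC, at 639, 642, 409 and 372 CPM in hAMSC and at 618, 618, 340.4 and 341 CPM in vehicle. Hk3, the isoform typical of myeloid cells, was 0.12 higher with hAMSC than with vehicle (SE 0.042; edgeR, adjusted p = 0.326) and 0.16 lower with hAEC than with hAMSC (SE 0.042; edgeR, adjusted p = 0.255). The libraries do not overlap within either set in both contrasts, yet neither passed. Hk1, the constitutive isoform, ran from 56.6 to 65.1 CPM in the lower-numbered and from 39.2 to 43.9 CPM in the higher-numbered set.

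Of the 7 enzymes from glucose phosphate to triose phosphate, 4 were higher in the lower-numbered set without overlap, against 28% of all genes. Gpi and Pfkm were higher in the other set without overlap, against 26.9% of all genes. Gpi stood at 339, 343, 475 and 488 CPM in hAEC, at 324, 339, 469 and 447 CPM in hAMSC and at 358, 340.2, 499 and 482 CPM in vehicle. Gpi, which interconverts glucose and fructose phosphates, was lower with hAMSC than with vehicle in both sets without overlap, with a log2 difference that did not pass (-0.09, SE 0.033; edgeR, adjusted p = 0.402). Aldoa stood at 1989, 2069, 1736 and 1800 CPM in hAEC, at 1957, 1962, 1861 and 1720 CPM in hAMSC and at 2172, 2135, 1923 and 1915 CPM in vehicle. Aldoa, the aldolase of most tissues, lay below vehicle in all 8 co-culture libraries within their sets. Its log2 change was -0.12 with hAMSC (SE 0.035; edgeR, adjusted p = 0.232) and -0.10 with hAEC (SE 0.035; edgeR, adjusted p = 0.860), and neither passed. DESeq2 called Aldoa with hAMSC (adjusted p = 0.0249), and over all alternatives its adjusted p ran from 0.0249 to 1. Both contrasts use the same vehicle libraries, so they are not independent.

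The phosphofructokinase subunits, which commit glucose to glycolysis, went apart between the sets. The set difference, higher-numbered minus lower-numbered, was -0.95 for Pfkp and -0.82 for Pfkl, and 1.24 for the muscle subunit Pfkm. Pfkm stood at 1.89, 1.45, 4.304 and 3.91 CPM in hAEC, at 1.43, 1.63, 4.08 and 3.89 CPM in hAMSC and at 1.44, 1.75, 3.11 and 3.51 CPM in vehicle. Pfkm rested on 40 to 132 counts per library. Aldoc stood at 0.337, 0.442, 0.880 and 1.34 CPM in hAEC, at 0.516, 0.892, 1.42 and 1.503 CPM in hAMSC and at 0.433, 0.679, 1.62 and 0.913 CPM in vehicle. Aldoc, the aldolase best known from brain, had the same direction at 1.23, but its sets overlap and its counts were 10 to 46. Triose phosphate isomerase, Tpi1, differed by -0.29 between the sets.

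Both bifunctional enzymes that make and remove the sugar bisphosphate activating phosphofructokinase were higher in the higher-numbered set without overlap, against 26.9% of all genes. Pfkfb3 stood at 139, 144, 186 and 192 CPM in hAEC, at 149, 151, 199 and 208 CPM in hAMSC and at 145, 152, 200.3 and 188 CPM in vehicle. Pfkfb3, the isoform with high kinase activity, was lower with hAEC than with hAMSC in both sets without overlap, at -0.09 on the log2 scale, and did not pass (SE 0.035; edgeR, adjusted p = 0.606). Pfkfb4 ran from 20.4 to 22.4 CPM in the lower-numbered and from 29.6 to 34.2 CPM in the higher-numbered set, with set differences of 0.59 for Pfkfb4 and 0.41 for Pfkfb3.

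Of the 6 enzymes from glyceraldehyde phosphate to pyruvate, 5 were higher in the lower-numbered set without overlap, against 28% of all genes. Eno1 stood at 1399, 1468, 782 and 807 CPM in hAEC, at 1400, 1404, 884 and 798 CPM in hAMSC and at 1508, 1518, 841 and 818 CPM in vehicle. Eno1, the main enolase, had a log2 difference of -0.07 with hAEC that did not pass (SE 0.040; edgeR, adjusted p = 0.920). Its set difference was -0.82, that of Pgam1 -0.82, of Pgk1 -0.54, of Pkm, the pyruvate kinase of macrophages and proliferating cells, -0.41, and of Gapdh -0.35. The neuronal enolase Eno2 overlapped between the sets at 16.2 to 28.1 CPM. All 6 had fitted changes below 0 with hAEC, from -0.22 to -0.02, against 51.5% of all genes. With hAMSC the changes ran from -0.07 to 0.03, with 4 of 6 below 0 against 51.1% of all genes. None of these changes passed. The tables also list a pseudogene, Gapdh-ps2, with which reads of Gapdh can be shared, so that gene carries a further uncertainty.

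Ldha stood at 501, 506, 249.5 and 257 CPM in hAEC, at 519, 521, 289.7 and 262 CPM in hAMSC and at 546, 502, 255 and 245 CPM in vehicle. Ldha, the lactate dehydrogenase subunit that favours lactate, was 1.99-fold higher in the lower-numbered set and lies just under a difference of 1 log2 unit, at -0.99, while Pdk2 at 1.23 lies just over it. Its log2 change was 0.07 with hAMSC (SE 0.043) and -0.02 with hAEC (SE 0.043), and neither passed. Ldhb, the subunit that favours pyruvate, was low at 1.203 to 2.63 CPM and overlapped between the sets.

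Pyruvate carboxylase, the mitochondrial enzyme that refills the citrate cycle and opens gluconeogenesis, encoded by Pc (ENSRNOG00000019372), gave the only call. Pc stood at 33.3, 34.7, 166 and 172 CPM in hAEC, at 33.3, 31.4, 154 and 153 CPM in hAMSC and at 40.3, 37.6, 189 and 181 CPM in vehicle. In each set both hAMSC libraries lie below both vehicle libraries, and the hAEC libraries lie between, though in the lower-numbered set hAMSC 7 at 33.27 CPM and hAEC 3 at 33.31 CPM are next to each other. The log2 difference of hAMSC from vehicle was -0.26 when the lower-numbered set was fitted alone and -0.27 for the higher-numbered set, and the fitted difference between them was -0.00 (SE 0.081). Alone, with 2 libraries against 2, neither set passed (edgeR, adjusted p = 0.126 and 0.0537).

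With hAEC the log2 change of Pc was -0.16 (SE 0.039, -10.5%), which did not pass (edgeR, adjusted p = 0.860). The direct contrast of hAEC with hAMSC was 0.11 (SE 0.039; edgeR, adjusted p = 0.582), so a difference between the co-cultures was not shown for Pc either. The call with hAMSC held when each of the 12 libraries was left out in turn, with log2 changes from -0.29 to -0.25 and adjusted p from 0.00586 to 0.0481. It was lost with the group alone in the model (adjusted p = 1), where the set difference enters the spread, and over all alternatives the adjusted p of Pc ran from 4.67e-07 to 1. In RefSeq (GRCr8) Pc overlaps Lrfn4, and the counting is not stated to use strand. The log2 difference of Lrfn4 was -0.04 with hAMSC (edgeR, adjusted p = 0.927) and -0.09 between the sets, where Pc differed by 2.27. Among other overlapping pairs, Csnk1d, beside Slc16a3, differed by -0.07 between the sets, and Cacfd1, beside Slc2a6, by -0.04. Spsb2, beside Tpi1, differed by -0.29, as Tpi1 did, and Unc5a, beside Hk3, by -1.28. Without strand, reads shared within such pairs cannot be told apart.

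Marker levels with hAMSC were looked at as well. In the higher-numbered set the summed endothelial markers were 500.5 to 570 CPM in hAMSC, 402 to 410 CPM in hAEC and 414 to 423 CPM in vehicle. In the lower-numbered set they were 671 to 823, 685 to 701 and 762 to 800.5 CPM, so that hAMSC and vehicle overlap. None of the 12 endothelial markers passed with hAMSC over both sets. In the test of whether that change differs between the sets, Clec14a passed (1.65, SE 0.227; edgeR, adjusted p = 0.0173), as did 0.199% of all genes. In the higher-numbered set Clec14a stood at 17.6 and 16.8 CPM in hAMSC and at 5.75 and 5.85 CPM in vehicle. In the lower-numbered set it stood at 23.5 and 34.5 CPM in hAMSC and at 27.5 and 34.0 CPM in vehicle. Lyve1 did not pass that test (1.83; edgeR, adjusted p = 0.0706). Hepatocyte markers summed to 729 to 821 CPM in hAMSC and 674 to 690.1 CPM in vehicle in the higher-numbered set, and to 556 to 652 and 522 to 586 CPM in the lower-numbered set. Nearly all of that sum was Tf, with a log2 difference of 0.17 with hAMSC, whereas the other 6 hepatocyte markers tested lay below 0, among them Alb (-1.035) and Ttr (-1.15), and none of the 7 passed. Macrophage markers summed to 55460 to 56160 and 55030 to 57820 CPM in the higher-numbered set, and to 31440 to 32440 and 29530 to 31580 CPM in the lower-numbered set. Of the 17, 2 (Cd163 and Msr1) passed as higher with hAMSC, against 0.155% of all genes tested. The part of any of these markers in the fall of Pc was not tested.

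**Figure D3:**
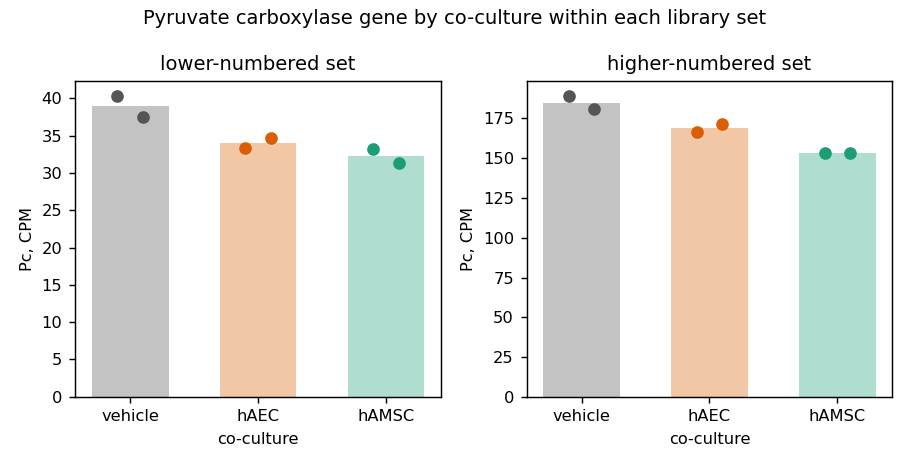
Pc in CPM, with a point for each library and a bar at the mean of each group within each library set. In both sets the hAMSC libraries are the lowest and the vehicle libraries the highest, from 31.4 to 40.3 CPM in the lower-numbered and from 153 to 189 CPM in the higher-numbered set.

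Of the 7 genes of pyruvate use tested, 5, Pc included, were higher in the higher-numbered set without overlap, against 26.9% of all genes. Pdk2 stood at 7.52, 6.69, 15.6 and 19.7 CPM in hAEC, at 6.91, 6.74, 18.6 and 15.00 CPM in hAMSC and at 7.36, 9.38, 18.9 and 16.5 CPM in vehicle. Pdk2, a kinase that switches pyruvate dehydrogenase off, was 2.34-fold higher in the higher-numbered set without overlap. Pdk1, the isoform known as a hypoxia target, ran from 8.85 to 10.5 CPM in the lower-numbered and from 14.1 to 17.5 CPM in the higher-numbered set. Mpc1 and Mpc2, which form the mitochondrial pyruvate carrier, differed by 0.75 and 0.45 in the same direction.

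Pdk3 stood at 33.6, 33.4, 23.2 and 23.00 CPM in hAEC, at 31.8, 30.6, 21.7 and 22.7 CPM in hAMSC and at 34.2, 29.9, 26.3 and 21.8 CPM in vehicle. Pdk3 was the kinase that went the other way, higher in the lower-numbered set at -0.48. Its hAEC libraries lie above its hAMSC libraries in both sets, at a log2 difference of 0.08 that did not pass (SE 0.064; edgeR, adjusted p = 0.973). Pdk4 was found at 0.0674, 0.158, 0.0326 and 0 CPM in hAEC, at 0.0573, 0.154, 0.0674 and 0.0367 CPM in hAMSC and at 0.217, 0.0323, 0 and 0.110 CPM in vehicle. Pdk4, the kinase induced by fasting and fatty acids, had 0 to 6 counts per library, too few to compare. Pdha1, the catalytic subunit that these kinases act on, overlapped between the sets at 105 to 141 CPM. Mpc2 was lower than vehicle without overlap within both sets in either co-culture, at -0.10 with hAEC and -0.12 with hAMSC, and did not pass.

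Of the 4 hypoxia genes tested, Hif1a and Egln1 were higher in the lower-numbered set without overlap, against 28% of all genes. Hif1a stood at 271, 259, 148 and 150.2 CPM in hAEC, at 287, 306, 152 and 158 CPM in hAMSC and at 241, 246, 154 and 142 CPM in vehicle. Hif1a, the oxygen-regulated subunit of the hypoxia-inducible factor, is controlled mainly as protein, which these data do not measure. In the lower-numbered set both hAMSC libraries lie above both hAEC and both vehicle libraries, and in the higher-numbered set hAMSC and vehicle overlap. Over both sets the log2 difference from vehicle was 0.18 with hAMSC (SE 0.045, 13.0%), which did not pass (edgeR quasi-likelihood test, adjusted p = 0.151).

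Fitted alone, the lower-numbered set gave 0.29 for Hif1a with hAMSC, which passed (edgeR, adjusted p = 0.0324), and the higher-numbered set gave 0.06, which did not (adjusted p = 0.910). The test of that difference itself gave -0.22 (SE 0.076) and did not pass (edgeR, adjusted p = 0.341), so the sets are not shown to differ in this change. No other member had an unadjusted p under 0.05 in that test (1 of 38, or 2.63%, against 10% of all genes), and 0.199% of all genes passed it. For the hAEC change the same test called 0 members and 0% of all genes, and at an unadjusted p under 0.05 it held 0 members against 5.4% of all genes. DESeq2 called Hif1a with hAMSC (adjusted p = 0.0321), and so did the edgeR fit without hAMSC 15 (adjusted p = 0.0420), and over all alternatives its adjusted p ran from 0.0321 to 1. Without vehicle 19 no gene passed the test of the difference between sets, and without hAMSC 16 158 did, with no member in either.

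Egln1, the main oxygen-sensing prolyl hydroxylase, ran from 20.1 to 22.4 CPM in the lower-numbered and from 12.4 to 16.6 CPM in the higher-numbered set. Egln3 stood at 1.25, 0.946, 1.598 and 0.668 CPM in hAEC, at 1.15, 2.03, 0.843 and 1.32 CPM in hAMSC and at 1.66, 1.75, 1.52 and 0.913 CPM in vehicle. Egln3, a prolyl hydroxylase that is itself a hypoxia target, overlapped between sets and groups. So did Ankrd37, another target, at 0.403 to 1.05 CPM. Car12, a membrane carbonic anhydrase, was at 0 to 0.221 CPM.

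The glycogen enzymes were both higher in the lower-numbered set without overlap, against 28% of all genes. Pygl stood at 148, 153, 91.99 and 94.7 CPM in hAEC, at 155, 142, 95.9 and 90.4 CPM in hAMSC and at 140.2, 135, 88.7 and 87.5 CPM in vehicle. Pygl, the liver-type glycogen phosphorylase, lay above vehicle in all 8 co-culture libraries within their sets. Its log2 difference from vehicle was 0.11 with hAEC (SE 0.038; edgeR, adjusted p = 0.861) and 0.10 with hAMSC (SE 0.038; edgeR, adjusted p = 0.430), and neither passed. Gys1, glycogen synthase, had a log2 difference of -0.33 between the sets, of -0.05 with hAMSC and of -0.00 with hAEC. Fbp1, the fructose bisphosphatase of gluconeogenesis, was at 0 to 0.0367 CPM.

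**Figure D4:**
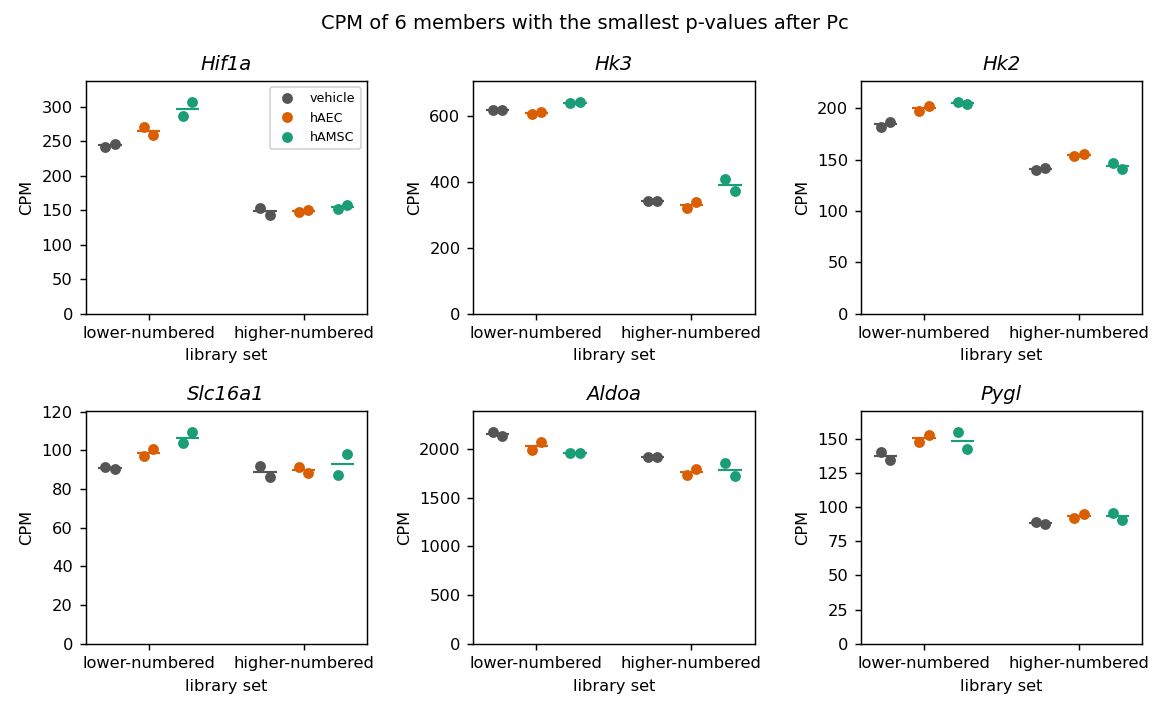
CPM of the 6 members with the smallest p-values after Pc in the contrasts with vehicle (Hif1a, Hk3, Hk2, Slc16a1, Aldoa and Pygl), with a point for each library by group and set. None passed; for Hif1a the hAMSC libraries stand apart at 287 and 306 CPM in the lower-numbered set and overlap vehicle, but not hAEC, in the higher-numbered set.

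Fitted log2 differences from vehicle ran from -0.37 to 0.20 with hAEC and from -0.36 to 0.26 with hAMSC over the 38 members. With hAEC 27 of the 38 fitted changes lay below 0, or 71.1% against 51.5% of all genes, with a median of -0.03 against -0.00. Unadjusted p-values under 0.05 were reached by 4 members (Hk2, Aldoa, Pc and Pygl), or 10.5% against 5.61% of all genes. Libraries that did not overlap with vehicle in either set were lower for 6 members (Hk3, Aldoa, Pfkfb4, Eno1, Pc and Mpc2; 15.8% against 3.6%) and higher for 2 (Hk2 and Pygl; 5.26% against 4.39%).

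With hAMSC 20 of the 38 lay below 0, or 52.6% against 51.1% of all genes, with a median of -0.00 in both. Unadjusted p-values under 0.05 were reached by 8 members (Hk2, Hk3, Gpi, Aldoa, Slc16a1, Pc, Hif1a and Pygl), or 21.1% against 9.68%. Non-overlapping libraries were lower for Gpi, Aldoa, Pc and Mpc2 (10.5% against 4.49%) and higher for Hk3 and Pygl (5.26% against 3.94%). The hAEC and hAMSC contrasts share the vehicle libraries, so these counts are not independent of each other. Between hAEC and hAMSC, 4 members had an unadjusted p under 0.05 (Hk3, Pfkfb3, Pc and Hif1a), or 10.5% against 6.37%. Libraries that did not overlap in either set were lower with hAEC for Hk3, Aldoc, Pfkfb3, Ldha and Hif1a (13.2% against 3.83%) and higher for Pdk3 and Pc (5.26% against 3.69%). The 32 members with a mean of at least 5 CPM had a median SE of 0.0464 for either contrast with vehicle, and the 6 lower ones had a median SE of 0.297 with hAEC and 0.294 with hAMSC. For these 6, a change of that size could not be told from the spread.

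**Figure D5:**
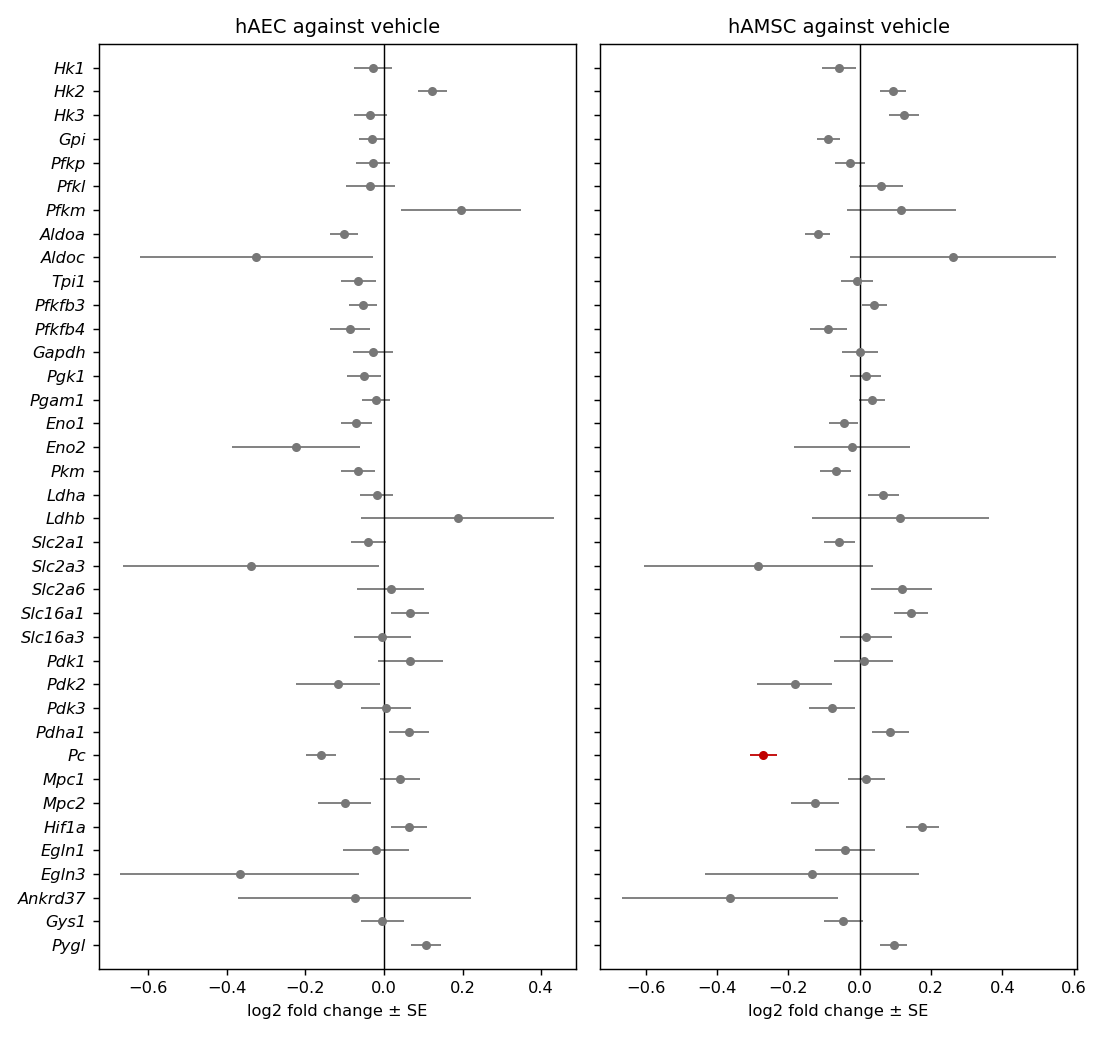
Log2 change of each of the 38 members tested with hAEC against vehicle and with hAMSC against vehicle; lines are 1 SE to each side, and red marks an adjusted p under 0.05. Pc with hAMSC, at -0.27, is the only red point, and the widest lines belong to genes under 5 CPM.

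Between the library sets 22 members (57.9%, against 28% of all genes) were higher in the lower-numbered set without overlap and 9 (23.7%, against 26.9%) in the higher-numbered set. Among the 32 members with a mean of at least 5 CPM the shares were 65.6% (against 31.7% of such genes) and 25% (against 29.6%). The 22 are the 3 hexokinases, 4 of the upper and 5 of the lower glycolytic enzymes, Ldha, 4 transporters, Pdk3, Hif1a, Egln1, Gys1 and Pygl. The 9 are Gpi, Pfkm, Pfkfb3, Pfkfb4, Pdk1, Pdk2, Pc, Mpc1 and Mpc2. A difference over 1 log2 unit was found for 8 members, which at 21.1% is near the 19.7% of all genes. These were 4 in each direction, or 10.5%, against 9.71% of all genes higher in the higher-numbered set and 9.98% in the other. The median difference was -0.35 over the members and -0.00 over all genes.

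A further 178 genes of neighbouring pathways were looked up, and 163 were tested in 9 lists. None passed in any of the 3 comparisons (edgeR), where 0%, 0.236% and 0.0222% of all genes did. Of the 163, 7 with hAEC, 11 with hAMSC and 11 between hAEC and hAMSC had an unadjusted p under 0.05. The shares of all genes were 5.61%, 9.68% and 6.37%. With hAMSC the smallest p in each list belonged to Bpgm (-0.10), Slc16a7 (0.17), Tkt (-0.15), Pgm2l1 (-0.16), Pck2 (-0.26), Dld (0.07), Vhl (0.17), Vegfa (-0.32) and Sirt3 (-0.17), with adjusted p from 0.123 for Pck2, the mitochondrial phosphoenolpyruvate carboxykinase, to 0.607 for Dld (edgeR). With hAEC it belonged to Tigar (0.08), Slc16a10 (0.19), Rpe (0.19), Pgm2l1 (-0.17), Slc25a10 (-0.09), Pdp2 (-0.10), Eloc (0.24), Vegfa (-0.19) and Prkaa1 (0.19), with adjusted p of 0.860 to 0.920 (edgeR). Between hAEC and hAMSC it belonged to Bpgm (0.13), Slc16a10 (0.23), Prps1 (0.16), Ppp1r3c (0.43), Pck2 (0.21), Pdhb (0.05), Epas1 (-0.45), Cxcr4 (0.15) and Ppargc1b (-0.25), and none passed.

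Between the library sets the neighbours of the members differed in both directions, given here as higher-numbered minus lower-numbered. Among 28 other hypoxia targets 6 were over 1 log2 unit lower, such as Adm (-3.35), which encodes a vasodilator peptide, and 4 were higher. Their median difference was -0.06. Of all genes 9.98% were lower and 9.71% higher past 1 log2 unit. Epas1, a paralog of Hif1a that is also abundant in endothelium, differed by -2.45 and Hspa9 by -1.08, the 2 of 16 regulators of the factor past that size. Among 26 genes of pyruvate dehydrogenase and the citrate cycle only Acod1, which makes itaconate in activated macrophages, was past it, at -3.56, with Aco1 next at 0.98. Of 8 genes of gluconeogenesis and malate use Me1, malic enzyme, differed by -1.59 and Pck2 by -0.86. Of 24 regulators of glycolysis Myc differed by -2.12 and Pparg by 1.32. Of 14 other transporters 1 was lower and 3 were higher past 1 log2 unit, led by Slc2a5, the fructose transporter (5.20). Slc2a5 rested on 0 to 103 counts per library. Of 20 glycogen genes Epm2a differed by 2.97 and Stbd1 by -1.26, on only 1 to 42 and 50 to 199 counts per library. None of 17 other glycolytic genes (Eno3 0.97, Pgam2 0.86) and none of 10 pentose phosphate genes (Prps1 -0.86, Shpk 0.56) passed 1 log2 unit.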

How the data were processed

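Polyadenylated RNA of 12 libraries was analysed. The authors deposited a table of RSEM expected counts for each library. Per the labels' protocols, RNA came from the RNAqueous-Micro kit and libraries from the TruSeq Stranded mRNA kit. The submitters' processing notes name FastQC, Trim Galore, STAR, RSEM and limma and the builds rn6 and Rnor_6.0; the sources used here give no version, annotation or strand setting. RSEM divides reads between similar genes.

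Counts were rounded. edgeR 4.0.16 in R 4.3.3 (filterByExpr, TMM, robust glmQLFit, glmQLFTest, two-sided) was fitted over all 12 libraries with group and library set, with Benjamini-Hochberg adjustment over 13539 genes and a threshold of 0.05. CPM are counts over TMM-scaled library sizes. Total counts were 27382724 to 34922211. Library pairs of a group and set differed by more than sampling noise. The fit was checked on simulated counts for hAMSC against vehicle, with planted changes of 0.5 and 1 log2 unit. Of these 64.3% and 88.7% were called, and 7 of the 156 calls were false. Smaller changes, such as that of Pc, were not simulated, so the check does not cover them.

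The members and lists were chosen with earlier results of these data known. Named with every library are members that passed, the 3 smallest p in each direction of each comparison, the 8 largest set differences, and Hk2, Pfkfb3, Ldha, Slc2a1, Pdk4, Hif1a, Egln3 and Pc. Of each neighbouring pathway list, the smallest p and the 2 largest set differences are named. Alternatives were DESeq2 1.42.0, limma 3.58.1 voom, other scalings and filters, the group alone, each set alone, and each library left out. Some listed genes were not analysed here, and some genes of neighbouring pathways that the rule names are not reported. No genome was used, and promoters are from RefSeq.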

Additional observations from a re-analysis of the deposited data

Results flagged for a closer look

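Among 122 groups of 4 libraries, 2 held a library far from the others. Each group of 4 mixes 2 libraries of each set, so a member that differs between the sets can hardly be flagged. The rate of 1 in 20 that the rule assumes therefore does not apply, and nothing is read from the number flagged. Pdha1, the catalytic subunit of pyruvate dehydrogenase, was at 141.4 CPM in hAMSC 16, and the other hAMSC libraries were at 119 to 122.2 CPM. Car12 was at 0.2208 CPM in hAEC 4 and at 0 in the other hAEC libraries.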

How the results depend on the processing

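No paired analysis was possible because the groups share no sample numbers. With hAMSC against vehicle the count of members called was 3 with DESeq2 (Aldoa, Pc and Hif1a; 155 genes in all against 32), 0 with the group alone and 0 in the higher-numbered set alone. It ran from 1 to 3 when libraries were left out, with 3 without hAMSC 15 (Slc16a1, Pc and Hif1a; 153 genes in all). The lower-numbered set alone gave 1, Hif1a. The median log2 change of the members with hAMSC had its lowest value at -0.0337, with vehicle 18 left out, and its highest at 0.0286, with vehicle 19 left out. The difference of the Pc change between library sets, near 0, turned to 0.0307 with library size alone and to 0.00728 where genes averaged 5 CPM or more. Without single libraries it ran from -0.0664 to 0.0535, above 0 without hAMSC 7 (0.0373), vehicle 18 (0.0535) or vehicle 19 (0.029), and none passed. All genes called with hAMSC ran from 8 (without vehicle 18) to 153, and numbered 52 with no filter, 9 with the hAMSC and vehicle libraries alone, 86 and 94 in single sets. Between hAEC and hAMSC they numbered 80 with DESeq2, 26 with no filter, 58 in the higher-numbered set alone and up to 50 (without hAMSC 7), against 3. Members over 1 log2 unit apart between sets numbered 5 where genes averaged 5 CPM or more (32 members) and 19 at a fold of 1.5. For hAEC against vehicle no member was called under any of the 24 alternatives, with at most 10 genes in all. The cause of these changes was not tested. Genes under 5 CPM are limited by depth.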
